A study of Mus musculus with 23 samples.

Results

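The genes described here are 10 growth regulators and RNA-binding factors of fetal tissue: Igf2, H19, Igf2bp1, Igf2bp2, Igf2bp3, Lin28b, Hmga2, Dlk1, Meg3 and Plagl1. They were taken by exact symbol from the authors' 2 deposited tables, and all 10 were present among the 22517 named genes of each table. The genes were chosen by name, with their values in the Eed-null and wild-type villus comparison of these tables already known, so the values below describe these genes and the authors' tests of them are not independent evidence for the choice. Both tables print 1 RPKM value (reads scaled by gene length and by the mapped reads of the library) per group and gene, with the authors' p-value and q-value, the p adjusted for multiple testing.

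RNA came from adult mouse intestine of mixed B6;129 background, from the proximal 1/3, with 3 libraries in each of 3 groups that the labels call biological replicates. Wild-type villus was epithelium of EedF/F; Cre- mice, and Eed-null villus was epithelium of EedF/F; Villin-CRE mice, also called mutant villus below. The stem cell group (ISC) was sorted for high GFP from crypts of Eed+/+; Lgr5-EGFP-IRES-CREERT2 mice, and Lgr5 marks dividing stem cells at the crypt base. Tamoxifen was given to the mice of all 3 groups, at 1 to 2 mg on each of 5 days. Tissue of all 3 groups was treated with 5 mM EDTA for 45 min. Digestion with the enzyme reagent TrypLE is listed for ISC alone. The Villin promoter drives Cre in intestinal epithelium, so other cells of the gut keep Eed, and Cre activity differs between Eed-null and control mice along with Eed itself. The protein Eed is needed by the Polycomb complex PRC2, which places the repressive histone mark H3K27me3.

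Insulin-like growth factor 2, encoded by Igf2, is a growth factor of the embryo whose gene is imprinted, with the paternal copy active, and its neighbour H19, a long noncoding RNA, is expressed from the maternal copy. Dlk1, a transmembrane Notch-like protein, and Meg3, a long noncoding RNA, form another such pair with paternal and maternal expression, and Plagl1 encodes a paternally expressed zinc finger protein. The Igf2bp proteins bind messenger RNAs including that of Igf2 and influence their stability and translation. Lin28b blocks the maturation of let-7 microRNAs, and let-7 in turn represses Hmga2, a chromatin protein with AT-hooks, as well as Igf2bp family and Lin28b messenger RNAs. Most of these genes are active before birth and low in adult epithelium, and several return in tumours, hence the term oncofetal.

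Of the 10 genes, 4 shared their locus entry, the interval that the tables give for a gene, with another symbol, against 16.4% of the 22517 named genes. Igf2 shared its entry with Igf2as and Mir483, H19 with Mir675, Meg3 with Mir770, and Hmga2 with 9230105E05Rik and Mir763. All 4 microRNA rows are listed at 0 in every group. The mature microRNAs of these entries, from RefSeq on GRCm38.p6, are printed here because a locus entry names them although the libraries were not made from small RNA and their rows hold no value. Bases 2 to 8, the seed that pairs with targets, are in capitals, and no seed is shared between them.
miR-483-5p: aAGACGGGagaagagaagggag
miR-483-3p: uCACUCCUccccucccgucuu
miR-675-5p: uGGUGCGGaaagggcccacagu
miR-675-3p: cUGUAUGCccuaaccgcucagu
miR-770-5p: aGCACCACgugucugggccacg
miR-770-3p: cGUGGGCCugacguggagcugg
miR-763: cCAGCUGGgaagaaccaguggc

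The let-7 family is shown for its place between Lin28b and Hmga2. All 8 mature let-7 names of the 5p arm carried 1 seed, and 3 of them are given with it in capitals, again from RefSeq on GRCm38.p6.
let-7a-5p: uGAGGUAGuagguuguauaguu
let-7d-5p: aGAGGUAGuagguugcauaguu
let-7g-5p: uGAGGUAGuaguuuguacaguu
Of 11 let-7 genes in the tables, 9 are listed at 0 in every group. The other two are listed above 0 in 1 group each, Mirlet7c-2 at 7.05 RPKM in Eed-null villus and Mirlet7d at 16.1 RPKM in ISC, and neither was called in the authors' deposited table. RPKM of such short genes says nothing of the mature microRNA, which these libraries do not measure.

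The windows just upstream of annotated starts are printed for 5 genes called higher in Eed-null villus, because CG dinucleotides are dense where PRC2 is commonly found in mammalian genomes. They hold 250 bases before the start, 5′ to 3′, from RefSeq on GRCm38.p6, which is not the mm9 build of the deposited loci, and each CG is in capitals. Windows were found for 8 of the 10 genes, 12 in all, and not for H19 or for Igf2bp1, which was also called higher. For Igf2 and Meg3 the window with the most CG is printed.
Igf2 window 3 of 4, chr7:142658805-142659054, minus strand: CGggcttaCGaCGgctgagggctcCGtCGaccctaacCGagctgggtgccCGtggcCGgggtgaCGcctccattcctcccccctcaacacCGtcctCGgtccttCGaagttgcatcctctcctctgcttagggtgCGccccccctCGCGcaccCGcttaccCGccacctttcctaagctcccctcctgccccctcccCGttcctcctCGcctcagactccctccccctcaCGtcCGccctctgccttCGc
Igf2bp2, chr16:22163300-22163549, minus strand: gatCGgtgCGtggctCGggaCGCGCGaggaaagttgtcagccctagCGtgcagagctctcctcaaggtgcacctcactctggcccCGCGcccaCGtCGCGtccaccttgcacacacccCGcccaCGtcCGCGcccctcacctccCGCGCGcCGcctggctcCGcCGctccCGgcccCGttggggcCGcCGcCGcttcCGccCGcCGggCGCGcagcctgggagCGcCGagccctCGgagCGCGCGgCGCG
Igf2bp3, chr6:49214955-49215204, minus strand: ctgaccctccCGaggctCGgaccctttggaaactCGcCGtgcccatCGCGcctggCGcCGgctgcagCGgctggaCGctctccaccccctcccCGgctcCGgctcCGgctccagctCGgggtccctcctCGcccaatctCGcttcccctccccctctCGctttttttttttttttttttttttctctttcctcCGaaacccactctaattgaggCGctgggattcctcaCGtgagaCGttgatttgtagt
Dlk1, chr12:109452573-109452822, plus strand: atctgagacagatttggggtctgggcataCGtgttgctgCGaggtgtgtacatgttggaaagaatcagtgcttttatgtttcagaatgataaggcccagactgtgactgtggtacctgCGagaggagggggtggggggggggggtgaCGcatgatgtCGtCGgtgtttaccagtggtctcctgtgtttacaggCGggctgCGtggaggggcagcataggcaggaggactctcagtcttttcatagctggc
Meg3 window 1 of 2, chr12:109540746-109540995, plus strand: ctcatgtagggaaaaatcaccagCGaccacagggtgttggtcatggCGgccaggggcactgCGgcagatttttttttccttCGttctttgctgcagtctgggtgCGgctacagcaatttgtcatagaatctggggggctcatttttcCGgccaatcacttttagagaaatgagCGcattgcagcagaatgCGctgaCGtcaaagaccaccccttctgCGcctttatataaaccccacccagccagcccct
The Igf2bp2 window held 40 CG, more than 98.7% of all 32851 RefSeq windows of that length, and the Igf2bp3 window held 21, more than 83.7%. The 4 Igf2 windows held 1, 10, 22 and 6, the Dlk1 window 8 and the Meg3 windows 10 and 0, where the median of all windows was 6. Of genes not called higher, the Plagl1 window held 19 CG, the Hmga2 window 8 and the Lin28b window 6. Of the 12 windows, 8 were above that median. The TATA box letters TATAAA, searched on both strands, stood in 1 of the 12 windows, against 12.4% of all windows, and the letters GGGCGG in 5 of the 12, against 32.7%. These are counts of letters and show no binding.

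In Eed-null villus, Igf2 and all 3 Igf2bp genes were higher than in wild-type villus, as were Dlk1 and Meg3. A gene is called where the authors tested it (status OK) and listed q at or below 0.05, and by this rule 6 of the 10 genes were called higher in Eed-null villus and none lower. Among all 12525 genes tested, 7.90% were called higher and 3.46% lower. H19 and Hmga2 were tested and not called, and Lin28b and Plagl1 were not tested. The median log2 ratio of Eed-null to wild-type villus over all 10 genes was 4.22, beside -0.08 over all tested genes with values above 0. In these bulk samples, more cells with a transcript and more of it per cell cannot be told apart.

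The reading of that count depends on the starting level. The authors tested no gene below 0.351 RPKM in its higher group, so a gene under that level in wild-type villus was tested only if Eed-null villus was higher. This holds for H19, Igf2bp1, Igf2bp3, Dlk1 and Meg3, of which 4 of 5 were called, whereas 50.2% of all 743 tested genes below that level were called higher. Igf2, Igf2bp2 and Hmga2 lay at or above it, and 2 of the 3 were called, against 5.23% of 11782 genes. Since the 10 genes were chosen with this comparison known, nothing is read from either count.

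**Figure D1:**
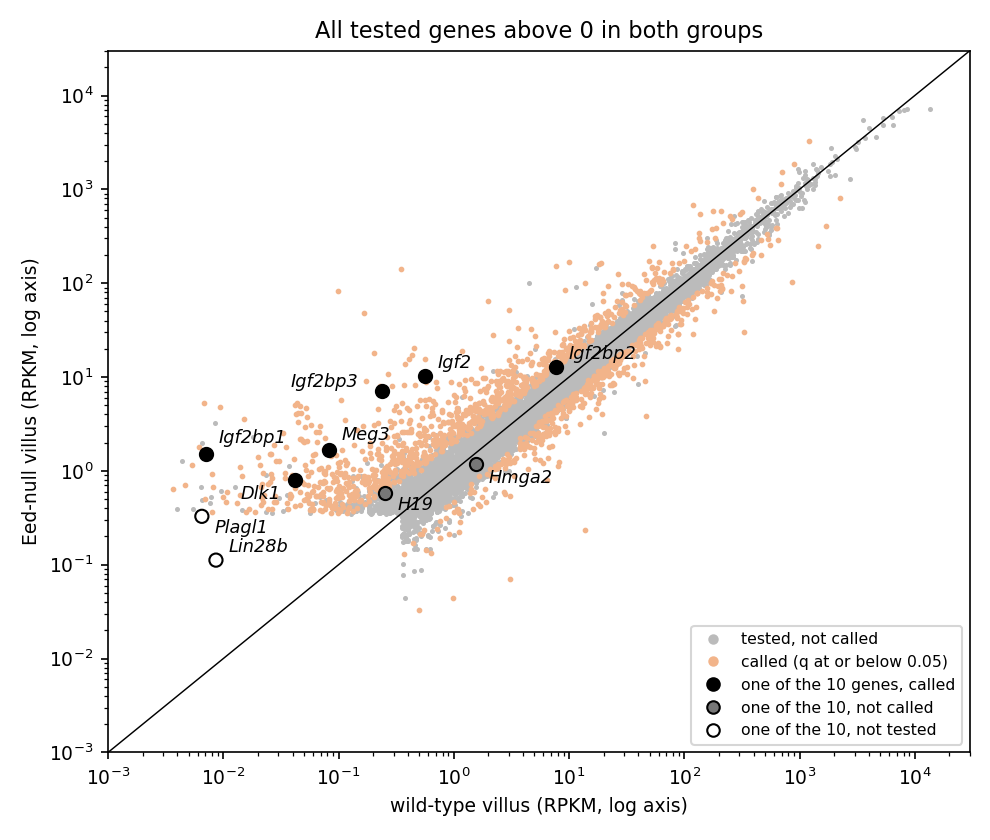
Eed-null against wild-type villus RPKM (both axes logarithmic) for all genes tested by the authors with values above 0 in both groups, with the diagonal of equal levels; large points are the 10 genes. Igf2, Igf2bp1, Igf2bp3, Dlk1 and Meg3 lie far above the diagonal, Igf2bp2 close above it and Hmga2 just below it.

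Igf2, the ligand, stood at 10.2 RPKM in Eed-null villus against 0.561 RPKM in control (wild-type) villus, or 18.2-fold higher (q listed as 0, the authors' deposited table). Its level moved from above 50.2% of all named genes in wild-type villus to above 77.9% in Eed-null villus. Ordered by the difference of log2(RPKM + 1), Igf2 was number 23 of the 989 genes called higher. In ISC, Igf2 had 0.354 RPKM against 0.652 RPKM in wild-type villus (q = 0.195, the authors' deposited table). Both wild-type populations held less than 1 RPKM of Igf2, and the authors' test did not separate them.

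Igf2as, an antisense transcript in the same locus entry, rose with Igf2, from 0.0639 to 2.59 RPKM, 40.6-fold more (q = 2.52e-07, the authors' deposited table). The library kit does not mark strand, so reads of Igf2 and Igf2as from overlapping exons cannot be told apart. Igf2 lies between 149836672 and 149856261 on chromosome 7 of build mm9, and H19 between 149761436 and 149764051, 72.6 kb away. H19 stood at 0.578 RPKM in mutant villus and 0.253 RPKM in the control (q = 0.182, the authors' deposited table). The ratio of Igf2 to H19 RPKM was therefore 17.7 in Eed-null and 2.22 in wild-type villus, and whether the pair differed in response was not tested. In ISC, H19 had 0.0215 RPKM against 0.294 RPKM in wild-type villus and was not tested in the authors' deposited table. The ratio of Igf2 to H19 in ISC was 16.5, near that of Eed-null villus, with an H19 value far below 0.351 RPKM.

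Apart from Igf2 and Igf2as, no tested gene within 100 kb of H19 or Igf2 was called between Eed-null and wild-type villus. Mrpl23, a mitochondrial ribosomal protein gene, had 21.7 RPKM in mutant villus and 32.8 RPKM in the control (q = 0.219, the authors' deposited table). Lsp1, a leukocyte protein gene, had 1.05 and 1.06 RPKM (q = 0.996, the authors' deposited table). Ins2, an insulin gene 8.30 kb from Igf2, had 0.0499 RPKM in Eed-null villus, is listed at 0 in wild-type villus and was not tested. Of 17 genes of a wider list of this locus, 10 were tested and 5 called higher, beside 7.90% of all tested genes. The list includes Igf2 and H19 themselves. Of these calls, 3 were among 4 genes below 0.351 RPKM in wild-type villus, where 50.2% of all tested genes were called higher. The remaining 2 came from 6 tested genes at or above it, beside 5.23% of all such genes. The called genes of this list other than Igf2 and Igf2as lie further away and were Th, Ctsd and Syt8. Th, the rate-limiting enzyme of catecholamine synthesis, had 0.681 against 0.206 RPKM (q = 0.0346, the authors' deposited table). Ctsd, a lysosomal protease gene, had 301 against 133 RPKM (q = 3.33e-05, the authors' deposited table). Syt8, of the synaptotagmin family, had 0.797 against 0.164 RPKM (q = 0.0152, the authors' deposited table).

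The Igf2bp genes encode closely related RNA-binding proteins, and they started from very different levels. Igf2bp2, the form known from adult tissues, had 12.7 RPKM in mutant villus and 7.68 RPKM in the control, or 1.66-fold more (q = 0.0259, the authors' deposited table). Igf2bp3 stood at 7.15 against 0.238 RPKM, 30.0-fold more (q listed as 0, the authors' deposited table). Igf2bp1 had 1.53 RPKM in Eed-null villus beside 0.00713 RPKM in the control, a 214-fold ratio (q = 1.26e-09, the authors' deposited table). The wild-type value of Igf2bp1 lies far below the 0.351 RPKM of the lowest higher group tested, so the size of its ratio is uncertain: on the log2 scale it was 7.74, but 3.93 with 0.1 RPKM and 1.33 with 1 RPKM added to both values. Among 970 genes called higher with a value above 0 in wild-type villus, Igf2bp1 was number 9 by ratio, Igf2bp3 number 69 and Igf2bp2 number 941. The 3 genes thus stood near both ends of that order.

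RPKM is scaled by gene length, so the 3 levels can be added. Their sum was 21.4 RPKM in mutant villus and 7.93 RPKM in the control. Igf2bp2 made up 96.9% of the sum in wild-type villus and 59.4% in Eed-null villus, while Igf2bp3 went from 3.01% to 33.4% and Igf2bp1 from 0.0900% to 7.15%. In ISC the sum was 9.57 RPKM with 97.0% from Igf2bp2, close to the 9.21 RPKM and 96.9% of wild-type villus in the same table. Igf2bp2 levels were 9.28 RPKM in ISC and 8.93 RPKM in villus (q = 0.854), and Igf2bp3 0.289 and 0.277 RPKM (q = 0.936), in the authors' deposited table. Igf2bp1 was at 0.00125 RPKM in ISC and 0.00829 RPKM in villus and was not tested. None of these genes shares its locus entry, and they lie on build mm9 at 95818477 to 95867258 of chromosome 11 (Igf2bp1), 22059081 to 22163372 of chromosome 16 (Igf2bp2) and 49035216 to 49164953 of chromosome 6 (Igf2bp3).

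**Figure D2:**
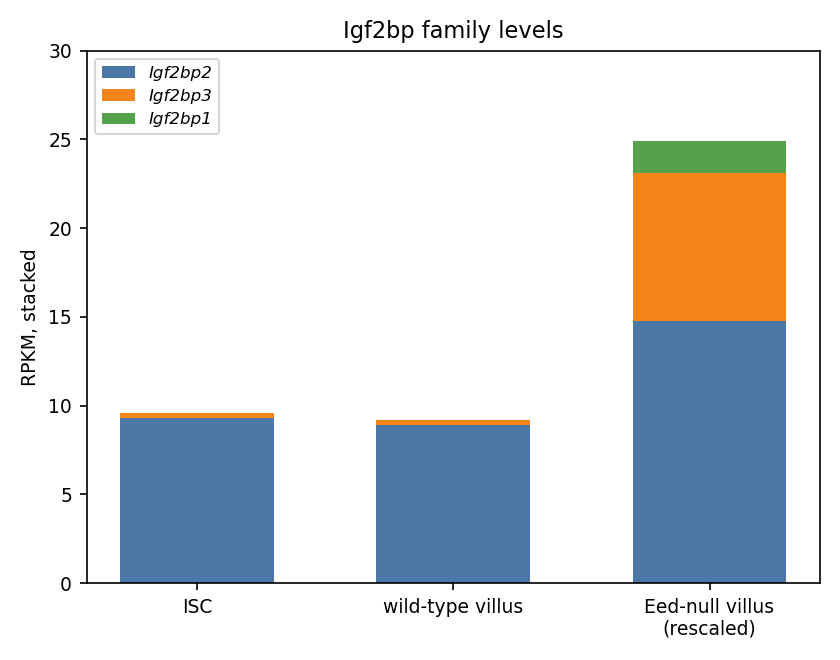
Stacked RPKM of Igf2bp2, Igf2bp3 and Igf2bp1 in ISC, wild-type villus and Eed-null villus, with the Eed-null values rescaled to the other table and no error bars because the tables hold 1 value per group. Igf2bp2 fills nearly the whole bar in both wild-type groups, and Igf2bp3 and Igf2bp1 add visible parts in Eed-null villus.

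Messenger RNAs of proteins that work with the Igf2bp proteins, such as the RNA-binding proteins Syncrip and Hnrnpu, were not called in Eed-null villus. All 11 genes of this list were tested, and none was called in either direction or had an unadjusted p under 0.05 in the authors' test (0 of 11). Of all 12525 tested genes 11.4% were called in either direction, so a count of 0 of 11 calls is near that share. Hnrnpu had 33.9 RPKM in mutant villus and 38.6 RPKM in the control (q = 0.749), and Syncrip 10.3 and 11.2 RPKM (q = 0.918), in the authors' deposited table. Between villus and ISC, 7 of the 11 were called higher in ISC, where 32.3% of all 13007 tested genes were. Pabpc1, the poly(A)-binding protein, had 518 RPKM in ISC against 124 RPKM in villus (q = 6.36e-09) in the authors' deposited table. Igf2bp2 and Igf2bp3 were not called between villus and ISC, and no gene of the list was called between Eed-null and wild-type villus.

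Lin28b stayed very low in every group. It had 0.112 RPKM in Eed-null villus, 0.00864 RPKM in the control, and is listed at 0 in ISC. The authors did not test it, although the authors' deposited table lists an unadjusted p of 0.00596 for the Eed-null comparison. Its paralog Lin28a had 0.00770 and 0.00694 RPKM in Eed-null and wild-type villus and was not tested either. Of the 14 genes present from a list on Lin28 and let-7 processing, 12 were tested in the Eed-null comparison. Among these 1 was called, beside 11.4% of all tested genes called in either direction. The called gene was Zcchc11, a terminal uridylyltransferase that acts with Lin28 on let-7 precursors. Its levels were 3.65 against 2.13 RPKM (q = 0.0437, the authors' deposited table). Between villus and ISC, 6 of 12 tested were called higher in ISC and 2 higher in villus, beside 32.3% and 30.5% of all tested genes. Xpo5, the exporter of microRNA precursors, was higher in ISC at 18.8 against 3.06 RPKM (q listed as 0, the authors' deposited table).

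Hmga2 had another order of levels than the other 9 genes. It stood at 4.30 RPKM in ISC beside 1.81 RPKM in villus, or 2.37-fold higher (q = 0.000298, the authors' deposited table). In mutant villus it had 1.19 RPKM against 1.56 RPKM in the control (q = 0.615, the authors' deposited table). It was the 1 gene of the 10 called between villus and ISC, where 4 of the 10 were tested and where 62.8% of all 13007 tested genes were called, 32.3% higher in ISC and 30.5% higher in villus. Hmga2 shares its entry, 119798330 to 119913991 on chromosome 10 of mm9, with the noncoding gene 9230105E05Rik. That gene had 2.09 against 1.17 RPKM between ISC and villus (q = 0.218) and 0.210 against 1.01 RPKM between Eed-null and wild-type villus (q = 0.122) in the authors' deposited table, so it was called in neither comparison.

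Of 14 other textbook let-7 targets, 12 were tested between Eed-null and wild-type villus. None was called in the authors' deposited table, with 2 at an unadjusted p under 0.05. Of all tested genes 11.4% were called in either direction, so a count of 0 of 12 is near that share. Between villus and ISC all 14 were tested, with 7 called higher in ISC and 5 higher in villus, beside 32.3% and 30.5% of all tested genes. Hmga1, a relative of Hmga2, had 51.9 RPKM in ISC against 5.70 RPKM in villus (q = 4.57e-06), and the cell cycle kinase Cdk6 was 8.72-fold higher in ISC (q listed as 0), in the authors' deposited table. The growth regulator Myc had 40.9 and 4.91 RPKM (q listed as 0), and 6.98 against 4.22 RPKM between Eed-null and wild-type villus (q = 0.147), in the authors' deposited table.

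Dlk1 and Meg3, the other imprinted pair, were both higher in Eed-null villus. Dlk1 had 0.795 RPKM in mutant villus and 0.0419 RPKM in the control, a log2 ratio of 4.25 (q = 8.16e-06, the authors' deposited table). Meg3 had 1.65 against 0.0822 RPKM, a log2 ratio of 4.32 (q = 2.58e-05, the authors' deposited table). Both control values lie far below 0.351 RPKM, and with 0.1 RPKM added to both groups the log2 ratios were 2.66 for Dlk1 and 3.26 for Meg3, with 1 RPKM 0.78 and 1.29. The ratio of Meg3 to Dlk1 RPKM was 2.07 in Eed-null and 1.96 in wild-type villus. In ISC, Dlk1 had 0.0235 and Meg3 0.0226 RPKM, against 0.0487 and 0.0955 RPKM in villus, and neither was tested in the authors' deposited table.

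On mm9, Dlk1 spans 110691032 to 110701546 and Meg3 110779205 to 110809939 of chromosome 12, with 77.7 kb between them. Rian, a maternally expressed noncoding RNA 32.2 kb beyond Meg3, had 0.891 against 0.0545 RPKM, 16.3-fold more (q = 2.29e-06, the authors' deposited table). Rtl1, a paternally expressed gene derived from a retrotransposon, lies between Meg3 and Rian and had 0.0495 and 0.0234 RPKM without being tested. Of 10 genes listed for this locus, which include Dlk1 and Meg3 themselves, 6 were tested and 3 called higher, namely Dlk1, Meg3 and Rian. All 3 started below 0.351 RPKM in wild-type villus, where 50.2% of all tested genes were called higher. None of the 3 tested genes of the list at or above it was called higher, beside 5.23% of all such genes. Yy1 and Wars, further listed genes of the region, had 23.8 against 17.5 RPKM (q = 0.273) and 27.2 against 17.4 RPKM (q = 0.168) in the authors' deposited table.

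**Figure D3:**
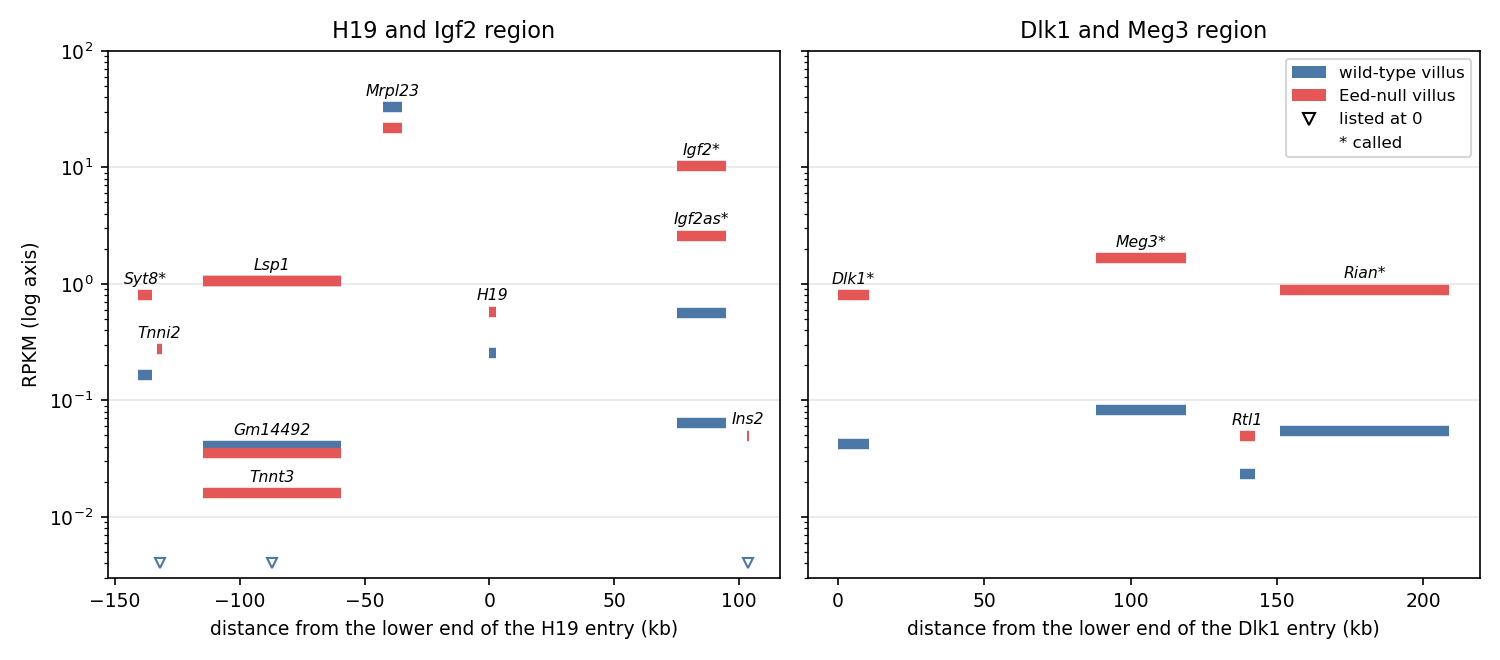
RPKM (log axis) of genes around H19 and Igf2 (left) and around Dlk1 and Meg3 (right) in wild-type and Eed-null villus. Each gene has 1 bar per group, drawn to scale along the chromosome as distance in kb, so genes that share a locus entry have bars over the same stretch. Triangles mark values listed at 0 and asterisks called genes. MicroRNAs and genes listed at 0 in both groups are not drawn. Igf2 and Igf2as are separated between the groups and Lsp1 is not, its bars lying on each other at 1.05 and 1.06 RPKM; Dlk1, Meg3 and Rian are all separated.

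Plagl1, the remaining imprinted gene, had 0.328 RPKM in mutant villus and 0.00652 RPKM in the control. The authors did not test it, and the authors' deposited table lists an unadjusted p of 0.000223. Its log2 ratio was 5.65, and 2.01 with 0.1 RPKM or 0.40 with 1 RPKM added to both values. In ISC it had 0.0359 RPKM beside 0.00757 RPKM in villus, again without a test. Its entry lies at 12810593 to 12851501 on chromosome 10 of mm9. Its relative Plag1, a zinc finger activator, was higher in Eed-null villus at 0.994 against 0.368 RPKM (q = 0.00544), and Plagl2 had 6.47 and 5.87 RPKM (q = 0.841), in the authors' deposited table.

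Of 23 imprinted growth genes outside the 10, 13 were tested between Eed-null and wild-type villus, with 5 called higher and none lower, beside 7.90% and 3.46% of all tested genes. Of the 5, Grb10 and Gatm started below 0.351 RPKM, where 3 of the list were tested and where 50.2% of all tested genes were called higher, and the other 3 came from 10 tested genes at or above it, beside 5.23%. Grb10, an adaptor that restrains insulin and Igf receptor signalling, had 0.568 against 0.0378 RPKM (q = 2.91e-05) in the authors' deposited table. Cdkn1c, which encodes the cell cycle inhibitor p57, had 9.57 against 4.06 RPKM (q = 0.00216) in the authors' deposited table. Gatm, an enzyme of creatine synthesis, had 0.829 against 0.202 RPKM (q = 0.00207), and Phlda2, a growth restrainer of the placenta, 1.46 against 0.352 RPKM (q = 0.0407), in the authors' deposited table. Osbpl5, the remaining called gene of the list, had 4.53 against 2.58 RPKM (q = 0.0367) in the authors' deposited table. The median log2 ratio of the 13 tested genes was 0.58, beside -0.08 over all tested genes.

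No receptor for Igf2 was called between Eed-null and wild-type villus. Of 6 other ligands of the family only 2 were tested, with 0 called higher and 1 lower. Among all tested genes 7.90% were called higher and 3.46% lower. Insl6, an insulin-like peptide, fell from 25.7 to 13.4 RPKM (q = 0.0259) in the authors' deposited table, and 1 further ligand of 6 was tested and not called. Igf1r, the signalling receptor, had 0.250 RPKM in mutant villus, 0.243 RPKM in the control and was not tested, while in ISC it had 3.00 against 0.282 RPKM (q listed as 0) in the authors' deposited table. Igf2r, which clears Igf2 from the cell surface, had log2 ratios to wild-type villus of 0.48 in mutant villus (q = 0.187) and -0.25 in ISC (q = 0.337) in the authors' deposited table. Insr, the insulin receptor, had 6.26 against 9.12 RPKM (q = 0.116) in mutant villus, and 5.07 against 10.6 RPKM in ISC (q = 8.42e-06), in the authors' deposited table. Of 10 receptor and adaptor genes, 8 were tested in each comparison. In Eed-null villus 2 were called higher, beside 7.90% of all tested genes. They were Insrr, at 0.960 against 0.452 RPKM (q = 0.0440, the authors' deposited table), and Grb10, which the imprinted list above also counts. Grb10 was 1 of 2 tested below 0.351 RPKM in wild-type villus, where 50.2% of all tested genes were called higher. Insrr was 1 of 6 at or above it, beside 5.23%. Against villus, 3 of the list were called higher in ISC and 3 lower, beside 32.3% and 30.5% of all tested genes. Of 12 Igf binding proteins and their proteases, 2 were tested in Eed-null villus and the rest were not. Neither of the 2 was called or had an unadjusted p under 0.05 in the authors' test. Of all tested genes 11.4% were called in either direction, so a count of 0 of 2 is near that share. Igfbp4, a secreted Igf binding protein, had 47.6 RPKM in ISC against 2.64 RPKM in villus (q listed as 0), and 3.18 against 2.27 RPKM in mutant villus (q = 0.493), in the authors' deposited table.

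Placed on 1 scale through wild-type villus, Eed-null villus was the highest of the 3 groups for 9 of the 10 genes. The tables were normalized separately, with all wild-type villus values apart by a factor of 1.16193, so the Eed-null values were multiplied by it for this order alone. For Igf2, H19, Igf2bp1, Lin28b, Dlk1 and Meg3 wild-type villus came next and ISC last. For Igf2bp2, Igf2bp3 and Plagl1 the order of these lower groups was the opposite, with rescaled Eed-null levels of 14.8, 8.31 and 0.381 RPKM. The neighbouring levels of villus and ISC were not called for Igf2, Igf2bp2 or Igf2bp3 and not tested for Igf2bp1, H19, Lin28b, Dlk1, Meg3 or Plagl1. Eed-null villus was not tested against ISC here, and both comparisons share the wild-type villus libraries.

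**Figure D4:**
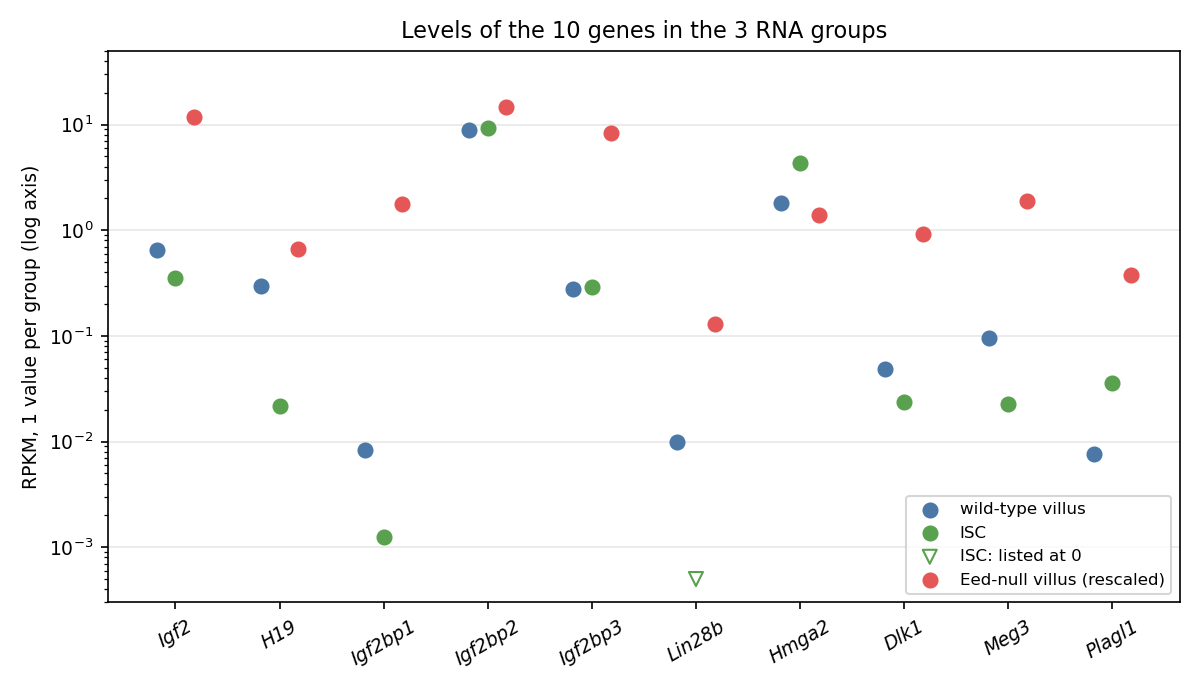
RPKM (log axis, 1 value per group) of the 10 genes in wild-type villus, ISC and Eed-null villus, the last rescaled by 1.16193; the open triangle marks Lin28b, listed at 0 in ISC. Eed-null villus is the highest point for 9 genes, and ISC for Hmga2.

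**Figure D5:**
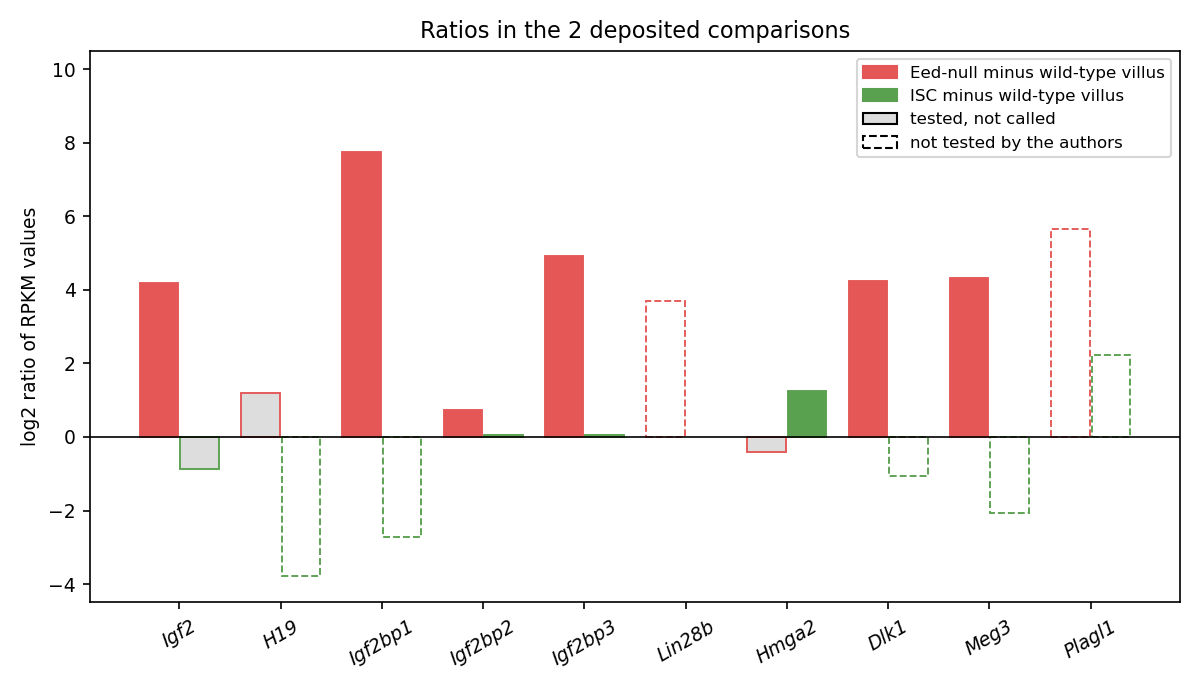
The log2 ratio of RPKM to wild-type villus for the 10 genes in Eed-null villus and in ISC; filled bars were called, grey bars were tested and not called, dashed bars were not tested by the authors, and Lin28b has no ISC ratio. The thin ISC bars of Igf2bp2 and Igf2bp3, both at 0.06, were not called.

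Eed itself had 3.00 RPKM in the libraries labelled Eed-null against 9.17 RPKM in the control (q = 6.29e-06), and 24.2 RPKM in ISC against 10.7 RPKM in villus (q = 8.05e-06), in the authors' deposited table. The Eed transcript was thus lower and not absent, and whether those reads lie inside the deleted part is not known from a value per gene. The summed RPKM of 8 epithelial markers was 6195 in mutant and 5952 in wild-type villus, with Krt18 called higher and Cdx2 called lower. Summed secretory markers had higher values in mutant villus: the goblet sum was 17426 against 11811 RPKM, with 7 of 7 values higher and 3 called, the Paneth sum 4490 against 3142 RPKM with 5 of 6 higher and 1 called, and the enteroendocrine sum 635 against 403 RPKM with 6 of 8 higher, 1 called higher and 1 lower. The stem cell marker Lgr5 had 18.3 RPKM in ISC against 0.607 RPKM in villus. Several of the 10 genes are also known from stromal, vascular and nerve cells, which keep Eed. The summed RPKM of 13 mesenchyme markers was 5.73 in Eed-null and 3.85 in wild-type villus, with 10 of 13 values higher, 3 tested, none called and Lum listed at 0. Most of that sum came from Tagln, at 2.60 and 1.77 RPKM, and Vim, at 1.59 and 1.17 RPKM. The sum of 7 endothelial markers was 0.645 and 1.24 RPKM, with Tek called lower and Emcn and Cldn5 listed at 0 in Eed-null villus. The sum of 7 nerve and glia markers was 4.22 and 0.658 RPKM, with 5 of 7 values higher. Ret was the 1 gene tested and gave 3.50 and 0.419 RPKM of it (q = 1.40e-11). Without Ret the sum was 0.724 and 0.239 RPKM, 3.03-fold higher, with 4 of 6 values higher and Sox10 listed at 0. The sum of 10 leukocyte markers was 57.4 and 80.6 RPKM, with 5 of 10 values higher in Eed-null villus, 6 tested and none called. Gzma alone gave 37.6 and 59.9 RPKM of it. The part of any of these cell types in the levels above was not tested. ISC and villus differ in crypt or villus position, genotype, TrypLE digestion and sorting together, and these cannot be told apart.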

How the data were processed

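Gene expression was measured by RNA-seq in 9 libraries, 3 per group; 14 chromatin and input libraries were not analysed here. Per the submitters' processing notes, the tools were TopHat2 2.0.6, Bowtie, Cufflinks 2.0.1 and Cuffdiff with build mm9, listed without the role of each. The authors deposited 2 tables with 1 RPKM value per group and gene, a p-value, a q-value and a test status, and no values per library, so spread and depth are unknown and no interval is given. RPKM is named in 1 table, and the other was read as the same unit because its wild-type values differ by a constant factor. Analyses used Python 3.11.15 with pandas 2.3.3.

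A call is status OK with the authors' deposited q-value at or below 0.05. The deposited q-values matched a Benjamini-Hochberg adjustment over tested rows within 2.12e-06. Of the rows, 1 names no gene and was left out. Fold and log2 ratios came from deposited RPKM with no pseudocount.

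The 10 genes, the 11 gene lists and the markers were chosen with earlier results of these data known. Named genes were the 10, genes sharing an entry or within 100 kb of Igf2, H19, Dlk1 or Meg3, up to 4 called genes per list with the largest difference of log2(RPKM + 1), and the 3 genes nearest in pattern, given only for genes tested in both tables. Igf2r, Lin28a, Th, Gpc3, the let-7 genes and the marker genes fall outside that rule and were named after their values were seen. Of the nerve and glia markers, 1 is not reported here and was left out of their sum. The adjustment step was tested on simulated data. Alternatives changed the q threshold, a floor of 1 RPKM, shared entries, the pseudocount and centring.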

Additional observations from a re-analysis of the deposited data

How the results depend on the processing

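The 6 calls between Eed-null and wild-type villus became 5 at q at or below 0.01, where Igf2bp2 was lost, 5 with at least 1 RPKM in the higher group or with p adjusted again over such genes, where Dlk1 was lost, and 4 without genes that share a locus entry. The single call between villus and ISC, Hmga2, became 0 without genes that share an entry, because Hmga2 was itself left out. It kept its call under the other 4 alternatives run. A pseudocount cannot reverse a ratio but shrinks those of low genes: between 0 and 1 RPKM added, the log2 ratio of mutant to wild-type villus went from 7.74 to 1.33 for Igf2bp1, 4.25 to 0.78 for Dlk1, 4.32 to 1.29 for Meg3, 5.65 to 0.40 for Plagl1, 3.70 to 0.14 for Lin28b, 4.91 to 2.72 for Igf2bp3 and 4.19 to 2.85 for Igf2. Centring moved all genes alike, by the median log2 ratio of -0.10 in that comparison and -0.02 between ISC and villus. The count of 9 genes highest in Eed-null villus was the same without rescaling.

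No paired analysis was possible because the tables hold 1 value per group and no column per library. For the same reason no library was left out in turn, and the weight of any 1 library in a value is unknown. The labels call the libraries biological replicates, and the authors' p-values rest on a spread that the tables do not show. Values well below 0.351 RPKM, the lowest level the authors tested in a higher group, give uncertain ratios.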

Other observations

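Of 13 other genes known from fetal tissue and tumours, a list chosen with earlier results known, 6 were tested and 5 called higher in Eed-null villus in the authors' deposited table, beside 7.90% of all tested genes. Anxa1 and Gpc3 started below 0.351 RPKM, where 50.2% of all tested genes were called higher, and the other 3 calls came from 4 tested genes at or above it, beside 5.23%. Anxa1, a phospholipid-binding protein of repair, had 2.02 against 0.0502 RPKM (q = 9.78e-05), and Spp1, the secreted protein osteopontin, 3.25 against 0.962 RPKM (q = 0.00286), in the authors' deposited table. Clu, a secreted chaperone, had 1.53 against 0.468 RPKM (q = 0.00375), and Afp, the fetal serum protein, 17.9 against 10.3 RPKM (q = 0.0187), in the authors' deposited table. Gpc3, a glypican, was at 0.452 RPKM in mutant villus, against a control value listed at 0 (q = 0.000497) in the authors' deposited table.

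Among 12098 genes tested in both tables, likeness to Igf2, Igf2bp2 and Igf2bp3, which were also tested in both, was measured as the distance between pairs of log2(RPKM + 0.1) differences from wild-type villus, over 3 groups. Ephx1, an epoxide hydrolase, was nearest to Igf2 and Igf2bp3, at distances of 0.80 and 0.36, with 169 RPKM in Eed-null villus and 12.2 in ISC. Disp2 was nearest to Igf2bp2 at 0.03, and Igf2bp3 was itself the third nearest gene to Igf2 at 0.90. No likeness is given for Igf2bp1, Dlk1 or Meg3, whose low values the 0.1 RPKM outweighs. These distances rest on 1 value per group and are descriptions.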
